A study of Mus musculus with 8 samples.

Results

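The genes described here are 8 that belong to the output side of the circadian clock: the REV-ERB receptors Nr1d1 and Nr1d2, the PAR bZIP factors Tef and Hlf, the transcriptional repressors Ciart and Bhlhe40, the deubiquitinase gene Usp2 and the cell cycle kinase gene Wee1. They were chosen by name, with the differences between diets in these same libraries already known, so their levels and fold changes are given as a description and without p-values. All 8 are among the 24552 gene symbols counted, and all 8 passed the filter on low counts, which kept 11211 genes. RNA of the exorbital lacrimal gland (LG), which secretes the watery part of tears, was sequenced in 4 libraries of mice with free access to chow (ad libitum, AL) and 4 libraries of mice given 40% less (calorie restriction, CR). All were female C57BL/6J mice, put on their diet for 4 months at 6 to 7 months of age and 10 to 11 months old at collection. The study counts its RNA samples as mice, although the labels number the libraries and not the animals. The study states, in its account of the second of its 2 cohorts, that CR mice were fed daily, shortly before the dark phase. The time of day at which the glands were taken is not given in the sources used here. Diet, meal time and clock phase at collection therefore cannot be told apart in these libraries. The study ran 2 cohorts of mice on different chow, and the labels do not tie the libraries to a cohort. In the second cohort the chow of CR mice also held 40% more vitamins and micronutrients than that of AL mice. If the libraries came from that cohort, chow composition cannot be told apart from the amount of food either.

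The clock of mammalian cells is a loop of transcription factors. BMAL1 (gene Arntl) and CLOCK bind E-box sequences and switch on Per and Cry, whose proteins shut BMAL1 and CLOCK off again, and they also switch on Nr1d1, Nr1d2, Dbp, Tef, Hlf, Ciart, Usp2, Wee1 and Bhlhe40. The REV-ERB proteins in turn repress Arntl, Clock and Nfil3 through ROR response elements (RORE). DBP, TEF and HLF, the PAR bZIP factors, activate genes through D-box sequences, and NFIL3 represses the same sites. In organs outside the brain, meal times can set the phase of this loop.

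The promoters of the 8 genes were searched for E-boxes, D-boxes and ROREs, the sequences through which the loop works. RefSeq promoters of build GRCm38.p6, from 250 bases before to 50 bases after the start of transcription, were matched to 6 of the 8 genes as 7 windows, with 2 for Tef. The letters searched on both strands were CACGTG for the E-box, CACGTT for the weaker E'-box, TTATGTAA and TTACGTAA for the D-box, and TAGGTCA and TGGGTCA for the core of the RORE. No match of one motif can also be a full match of another. An E-box was found in both Tef windows and in the Ciart window, against 7.15% of all 32851 promoter windows. The Ciart window holds 3 of them, and the Nr1d1 window holds an E'-box, which 4.68% of all windows hold. No window of the 6 genes held a D-box (1.06% of all windows) or a RORE core (6.45%), which says only that these letters are not in these bases. The windows of Nr1d2, Hlf and Usp2 held none of the motifs. The 3 windows below are shown because they carry the matches, which stand in capitals.

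Tef, chr15:81802423-81802722, plus strand: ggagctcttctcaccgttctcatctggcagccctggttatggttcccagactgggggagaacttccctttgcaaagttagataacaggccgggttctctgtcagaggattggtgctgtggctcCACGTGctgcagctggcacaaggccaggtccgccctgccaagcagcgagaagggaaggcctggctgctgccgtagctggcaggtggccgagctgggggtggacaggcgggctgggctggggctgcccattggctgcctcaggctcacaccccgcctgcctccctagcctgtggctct
Ciart, chr3:95882179-95882478, minus strand: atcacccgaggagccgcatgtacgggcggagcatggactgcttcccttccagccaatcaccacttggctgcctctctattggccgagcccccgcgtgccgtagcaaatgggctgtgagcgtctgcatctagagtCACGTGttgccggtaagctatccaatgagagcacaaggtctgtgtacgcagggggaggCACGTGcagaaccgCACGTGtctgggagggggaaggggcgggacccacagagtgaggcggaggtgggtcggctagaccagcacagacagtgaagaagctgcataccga
Nr1d1, chr11:98775328-98775627, minus strand: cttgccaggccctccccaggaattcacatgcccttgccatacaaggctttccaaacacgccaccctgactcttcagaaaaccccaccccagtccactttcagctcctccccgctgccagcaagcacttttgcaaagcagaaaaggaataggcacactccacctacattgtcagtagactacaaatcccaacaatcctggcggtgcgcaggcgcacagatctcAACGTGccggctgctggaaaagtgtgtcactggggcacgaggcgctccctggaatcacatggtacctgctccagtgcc

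The capitals start 127 bases before the start site in Tef, 116, 58 and 44 bases before it in Ciart and 28 bases before it in Nr1d1, where the E'-box reads as its reverse complement. The other Tef window, of a start site further downstream in the gene, has its E-box 138 bases before the start, shown here with 10 bases on each side.

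Tef, second start site, chr15:81811266-81811291, plus strand: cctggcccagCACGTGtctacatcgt

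The libraries held between 12051881 and 22156511 counts on genes. Levels are given in CPM, counts per 1000000 after scaling by relative log expression (RLE), in the order of replicates 1 to 4 wherever single libraries are listed, and a library's 3 counts, taken as the floor of detection, correspond to between 0.152 and 0.231 CPM. Reads came from the 3' ends of transcripts, and counts were not divided by gene length, so levels are compared between diets and not between genes. Intervals and floors cover counting error only, since no molecular identifiers are named in the sources used here. In bulk RNA, fewer cells of a type and less RNA per cell cannot be told apart. The lacrimal markers Obp1a, Aqp5 and Pax6 were counted in every library, and the summed level of 7 lacrimal markers was 152000 to 166000 CPM in AL and 62900 to 157000 CPM in CR. Of these 7, Mup5 was called higher in CR and Scgb2b7 and Scgb1b7 lower, by the thresholds given below. Libraries also differed in transcripts of the parotid gland, a salivary gland that lies close by. Each of 6 parotid markers was higher in CR, 3 of them past the same thresholds. Prh1 and Prp2 were at 0 in AL replicates 2 and 4. The parotid sum ranged from 237 CPM (AL replicate 4) to 23500 CPM (AL replicate 1) and from 17900 CPM (CR replicate 4) to 230000 CPM (CR replicate 2).

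Of the 8 clock output genes, each had a higher mean in CR than in AL, and the median of their log2 fold changes was 1.06, against 0.01 over all genes tested. Usp2, Tef, Hlf and Nr1d2 passed the thresholds that the study set, which are an adjusted p under 0.05 over all genes together with a 1.5-fold difference, as 1.2% of all genes did in this direction. In the same 4 genes no CR library was as low as any AL library, which was so for 4.58% of all genes tested. In Nr1d1, Wee1, Ciart and Bhlhe40 the diets overlapped. Since the genes were chosen with these differences known, nothing is read from the 2 counts.

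**Figure D1:**
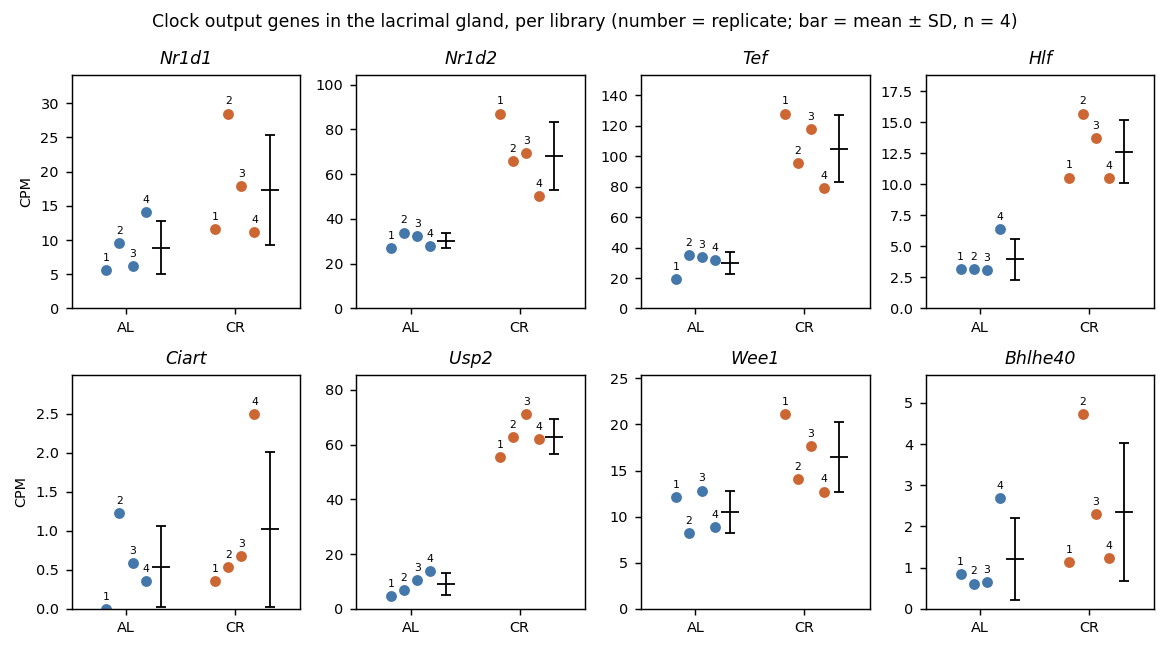
Level of each clock output gene in CPM (vertical axes, linear from 0, a scale for each gene) in the 4 AL (blue) and 4 CR (orange) libraries. The number beside a point is the replicate, and the black bar is the mean ± SD (n = 4). Usp2, Tef, Hlf and Nr1d2 do not overlap between diets, whereas in Nr1d1, Wee1, Ciart and Bhlhe40 at least 1 CR library lies below the highest AL library.

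Nr1d2 (Gene ID 353187, chromosome 14 from 18204054 to 18239127 of GRCm38, minus strand) encodes REV-ERB beta, a nuclear receptor without activating domain that represses its targets. Its level was 27.2, 33.9, 32.4 and 27.8 CPM with AL feeding and 87.1, 65.7, 69.4 and 50.3 CPM with CR. The AL libraries lay close together, and the lowest CR library, replicate 4, was still 1.48 times the highest AL library. Means were 30.3 ± 3.35 CPM in AL and 68.1 ± 15.1 CPM in CR (SD, n = 4 each), and the log2 fold change was 1.17 (standard error 0.19), a 2.24-fold higher level.

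Nr1d1 (Gene ID 217166, chromosome 11 from 98767932 to 98775333, minus strand) encodes the paralog REV-ERB alpha. It was counted at 5.63, 9.63, 6.19 and 14.2 CPM with AL feeding and at 11.7, 28.5, 17.9 and 11.2 CPM with CR. AL replicate 4 was higher than CR replicates 1 and 4, so the diets overlapped, and the highest library, CR replicate 2, was 2.55 times the lowest of its own diet. Means were 8.90 ± 3.92 CPM in AL and 17.3 ± 8.06 CPM in CR (SD, n = 4 each), with a log2 fold change of 0.95 (standard error 0.35). Without CR replicate 2 it was 0.61, and without AL replicate 4 it was 1.27.

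The count of Nr1d1 rests on a part of the genome used on both strands. Its exons share 263 bases with exons of Thra, which encodes the thyroid hormone receptor alpha, on the opposite strand, and all 263 lie in the last 500 bases of Nr1d1, where reads from 3' ends fall. The strand setting used for counting is not given in the sources used here, and without it reads of the 2 genes cannot be told apart in the shared bases. Thra itself was counted at 24.4, 17.8, 24.6 and 18.3 CPM with AL feeding and at 18.8, 28.9, 40.0 and 15.7 CPM with CR. Its diets overlapped, and its log2 fold change of 0.28 (standard error 0.27) did not pass the thresholds, with an adjusted p of 0.678 in edgeR (quasi-likelihood test, Benjamini-Hochberg adjusted over all genes). Both genes were lowest among CR libraries in replicate 4, while the highest CR library was replicate 2 for Nr1d1 and replicate 3 for Thra.

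Between the paralogs, the count of Nr1d2 per count of Nr1d1 was 4.84, 3.52, 5.24 and 1.96 with AL feeding and 7.46, 2.31, 3.88 and 4.50 with CR. The ratio did not separate the diets. It was lowest in AL replicate 4 and CR replicate 2, the libraries with the most Nr1d1 in each diet.

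Tef (Gene ID 21685, chromosome 15 from 81802421 to 81826863, plus strand), the thyrotroph embryonic factor, is a PAR bZIP activator of genes with D-boxes. Its level was 19.2, 35.1, 33.7 and 31.8 CPM with AL feeding and 128, 95.2, 118 and 78.8 CPM with CR. The lowest CR library was 2.25 times the highest AL library, and AL replicate 1 stood below the other AL libraries. The log2 fold change was 1.81 (standard error 0.23), with means of 29.9 ± 7.30 CPM in AL and 105 ± 22.3 CPM in CR (SD, n = 4 each), a factor of 3.51. Of its exon bases, 193 are shared with the antisense transcript Gm17597, none of them in the last 500 bases.

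Hlf (Gene ID 217082, chromosome 11 from 90336536 to 90390895, minus strand), the hepatic leukemia factor of the same family, was counted at 3.16, 3.19, 3.06 and 6.39 CPM with AL feeding. In CR replicates 1 to 4 it was counted at 10.5, 15.7, 13.8 and 10.5 CPM. AL replicate 4 had 2.09 times the level of AL replicate 3 and still lay below every CR library, the lowest of which was 1.64 times as high. Means were 3.95 ± 1.63 CPM in AL and 12.6 ± 2.55 CPM in CR (SD, n = 4 each), which gave 1.66 as the log2 fold change (standard error 0.29). Without AL replicate 1, AL replicate 2, CR replicate 2 or CR replicate 3, Hlf no longer passed the thresholds, with log2 fold changes of 1.58, 1.57, 1.55 and 1.63.

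The count of Tef per count of Hlf ranged from 4.97 to 11.0 in AL and from 6.07 to 12.1 in CR. The 2 factors thus kept a ratio that overlapped between diets, while both were higher in every CR library.

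Usp2 (Gene ID 53376, chromosome 9 from 44067021 to 44095627, plus strand) encodes an ubiquitin-specific protease whose transcript cycles with the clock in many organs and whose substrates include clock proteins. It showed the largest difference of the 8 genes. Its level was 4.62, 6.99, 10.5 and 13.7 CPM with AL feeding and 55.6, 62.7, 71.2 and 62.0 CPM with CR. The AL libraries spread 2.96-fold and the CR libraries 1.28-fold, and the lowest CR library was 4.06 times the highest AL library. The means of 8.95 ± 3.98 CPM in AL and 62.9 ± 6.41 CPM in CR (SD, n = 4 each) gave a log2 fold change of 2.81 (standard error 0.29), or 6.99-fold. Its exons share 200 bases each with Gm49380 and Gm39325 on the opposite strand, none in the last 500 bases.

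Wee1 (Gene ID 22390, chromosome 7 from 110122046 to 110143286, plus strand) encodes a kinase that holds back entry into mitosis by phosphorylating CDK1. It was counted at 12.1, 8.22, 12.8 and 8.83 CPM with AL feeding and at 21.2, 14.1, 17.7 and 12.7 CPM with CR. Overlap was slight, since the lowest CR library, replicate 4, was 0.991 times AL replicate 3, the highest of AL. Means were 10.5 ± 2.31 CPM in AL and 16.4 ± 3.79 CPM in CR (SD, n = 4 each), and the log2 fold change was 0.65 (standard error 0.23).

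Bhlhe40 (Gene ID 20893, chromosome 6 from 108660629 to 108666925, plus strand) encodes DEC1, a repressor that competes for E-boxes. It had between 9 and 53 counts in AL and between 16 and 80 in CR. Its level was 0.848, 0.613, 0.656 and 2.69 CPM with AL feeding and 1.13, 4.74, 2.29 and 1.22 CPM with CR. AL replicate 4 exceeded 3 of the 4 CR libraries. The log2 fold change of 0.94 (standard error 0.62) came down to 0.35 without CR replicate 2 and went up to 1.72 without AL replicate 4. Exon bases shared with the antisense transcript 0610040F04Rik number 118, none in the last 500 bases.

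Ciart (Gene ID 229599, chromosome 3 from 95878503 to 95882251, minus strand), also known as Chrono, encodes a repressor of BMAL1 and CLOCK. It was the least counted of the 8, with 0, 20, 8 and 7 counts with AL feeding and 5, 9, 11 and 45 counts with CR. These correspond to 0, 1.23, 0.583 and 0.355 CPM and to 0.354, 0.533, 0.681 and 2.50 CPM. AL replicate 1, with 0 counts, lay under the floor of 3 counts, 0.231 CPM in that library, and the upper end of its exact Poisson 95% interval was 0.284 CPM. CR replicate 4 (exact Poisson 95% interval 1.82 to 3.34 CPM) stood above all other libraries, and the next highest was AL replicate 2 (0.749 to 1.89 CPM). The log2 fold change between diets was 0.90 with a standard error of 0.87, and it was 0.51 without AL replicate 1.

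The order of the 8 genes by log2 fold change was Usp2, Tef, Hlf, Nr1d2, Nr1d1, Bhlhe40, Ciart and Wee1. Usp2 stood above Tef by more than the sum of their standard errors, whereas Tef and Hlf were closer to each other than the standard error of either, and so were Nr1d1, Bhlhe40 and Ciart. Nr1d2 and Nr1d1 were closer than the standard error of Nr1d1. Within a diet, libraries did not keep 1 order over the genes. CR replicate 4 was the lowest CR library in 5 of the 8 genes (Nr1d1, Nr1d2, Tef, Hlf and Wee1) and the highest in Ciart. AL replicate 1 was the lowest AL library in 5 genes and AL replicate 4 the highest in 4. Among the CR libraries, replicates 1, 2, 3 and 4 lay above every AL library in 5, 7, 6 and 5 of the 8 genes. These counts come without the share over all genes, and the genes were chosen with these differences known, so nothing is read from them.

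The mean log2 CPM of the 6 parotid markers, taken as a parotid score, ranged from 0.983 to 6.92 in AL and from 9.14 to 12.9 in CR. The score did not overlap between diets, while the parotid sum, mostly Bpifa2 and Amy1, did, since AL replicate 1 (23500 CPM) exceeded CR replicate 4 (17900 CPM). The other parotid markers differed between these 2 libraries, with Prh1 at 9.25 CPM in the former and 361 CPM in the latter. CR replicate 4 had 13.4 times the Usp2 of AL replicate 1, 4.11 times the Tef, 3.32 times the Hlf, 1.98 times the Nr1d1, 1.85 times the Nr1d2, 1.44 times the Bhlhe40 and 1.05 times the Wee1, in a pair chosen after the values were seen and with 1 library for each diet. With this score as a covariate over all 8 libraries, the log2 fold change was 3.84 for Usp2 (standard error 0.48), 2.06 for Tef (0.48), 2.36 for Hlf (0.56), 0.91 for Nr1d2 (0.39), 1.47 for Nr1d1 (0.77), 1.81 for Bhlhe40 (1.38), 2.95 for Ciart (1.79) and 0.19 for Wee1 (0.44). Standard errors were larger than without the covariate, and of the 8 genes Usp2 alone still passed the thresholds. The summed level of 8 lymphoid markers was 45.6 to 168 CPM in AL and 20.3 to 33.0 CPM in CR, and 6 of the 8 were too rarely counted to be tested. That of 4 fat markers was 2.04 to 6.38 CPM in AL and 3.83 to 24.3 CPM in CR, with Lep at 0 in the 4 AL libraries, and that of 4 muscle markers was 1.23 to 7.55 CPM in AL and 1.27 to 44.5 CPM in CR. The part of lymphoid, fat and muscle cells in the differences was not tested. Parotid content, by the score that did not overlap between diets, cannot be told apart from diet in these libraries.

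**Figure D2:**
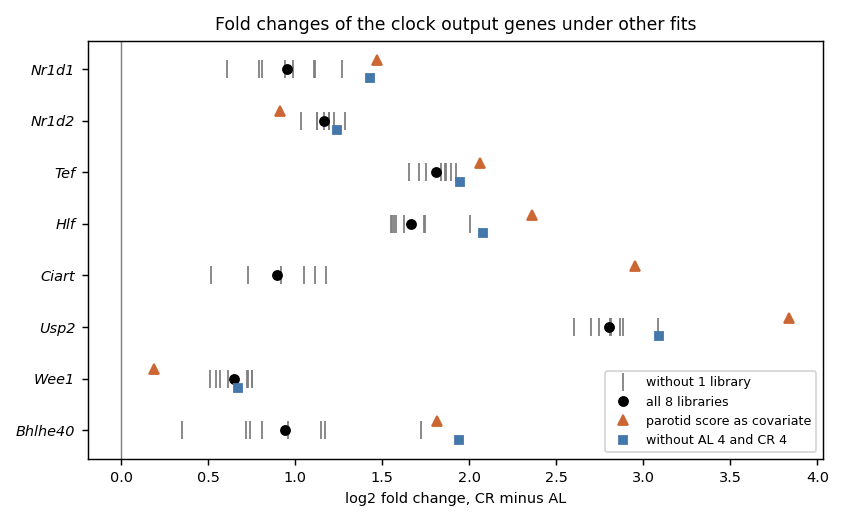
Log2 fold change of each clock output gene (horizontal axis, CR minus AL) with all 8 libraries (black points), without 1 library at a time (grey ticks), with the parotid marker score as a covariate (orange triangles) and without the libraries numbered 4 (blue squares). Every value lies above 0, and Wee1 with the covariate, at 0.19, is the nearest to it. In Ciart, fits in which the gene did not pass the filter on low counts have no mark.

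The other genes of the loop were taken from lists written from general knowledge, without regard to how they moved, although values of the Per, Cry, Dbp, Bhlhe41, Arntl, Clock and Nfil3 genes were already known. These lists hold 52 genes, of which 41 could be tested. Of the 41, 7 were called higher in CR and 3 lower by the edgeR quasi-likelihood test at the same thresholds, where 1.2% and 0.785% of all genes were. Of these 10, 7 are genes whose values were already known, so nothing is read from the comparison with all genes. The number called among them was 4 without AL replicate 1, AL replicate 2 or CR replicate 2, 5 without CR replicate 3, 6 without AL replicate 3 or AL replicate 4, and 17 without CR replicate 4. It was 2, Dbp and Cyp2a5, once the parotid score entered the fit, where calls over all genes went from 222 to 4 and standard errors were larger. Of the genes that lost the call there, log2 fold changes and standard errors were 4.06 and 0.74 for Per2, 3.82 and 0.62 for Per3, 2.62 and 0.74 for Bhlhe41, 2.003 and 0.71 for Csnk1e, -3.37 and 0.67 for Nfil3 and -1.24 and 0.39 for Clock, all 6 farther from 0 than without the score. Arntl (-3.98 and 1.48) and Tsc22d3 (0.73 and 0.45) were nearer to 0. Because the score did not overlap between diets, this fit cannot tell parotid content from diet.

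Genes that BMAL1 and CLOCK drive together with the 8 were all higher in CR in mean level. Of the 7, Dbp, Per2, Per3 and Bhlhe41 were called. Dbp, the third PAR bZIP factor, had a log2 fold change of 3.61 (adjusted p = 0.000672, standard error 0.33), beyond that of Tef and Hlf. Bhlhe41, which encodes DEC2 and is the paralog of Bhlhe40, was counted at 1.70, 1.84, 5.68 and 4.87 CPM with AL feeding and at 11.5, 15.9, 16.1 and 12.9 CPM with CR. Its diets did not overlap, whereas those of Bhlhe40 did. Its log2 fold change was 1.99 (adjusted p = 0.0208, standard error 0.37), and it was no longer called without AL replicate 1 or 2 or CR replicate 2 or 3. Per2 and Per3, whose proteins repress BMAL1 and CLOCK, rose by 2.63 (adjusted p = 0.00933, standard error 0.42) and 2.47 (adjusted p = 0.00697, standard error 0.37) on the log2 scale. Per1 (0.82, adjusted p = 0.0547) and Cry2 (0.95, adjusted p = 0.0581) missed the threshold although their diets did not overlap, DESeq2 called both, and Cry1 (0.89, adjusted p = 0.152) overlapped. The median over the list was 1.99.

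Of 4 clock genes with ROR response elements, on which REV-ERB proteins act, 3 could be tested, Arntl, Clock and Nfil3, and each of these 3 was called lower in CR. The 4 are not a complete set of such genes, and no direction is read for the group. Nfil3, which encodes the repressor that competes with PAR bZIP factors for D-boxes, fell from 16.0, 12.5, 16.4 and 6.75 CPM with AL feeding to 0.990, 1.24, 1.67 and 2.67 CPM with CR. All 4 CR libraries lay below all AL libraries (log2 fold change -2.96, standard error 0.37, adjusted p = 0.00389). Arntl was counted at 6.32, 4.66, 1.24 and 4.41 CPM with AL feeding and at 0, 0, 0.681 and 0.0555 CPM with CR. In 3 of the 4 CR libraries it was thus under the floor of 3 counts, and its fitted log2 fold change of -4.44 (adjusted p = 0.0334, standard error 0.91) moved to -7.21 without CR replicate 3 and, at such counts, depends on the prior count. Its call was lost without AL replicate 1, AL replicate 2, AL replicate 4, CR replicate 1 or CR replicate 2. Clock fell from 23.5 ± 4.02 to 12.6 ± 2.42 CPM (mean ± SD, n = 4 each, log2 fold change -0.90, standard error 0.20, adjusted p = 0.0436), and kept its call without CR replicate 4 but lost it without any other single library.

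Npas2, the relative of Clock, had too few counts to be tested. Among ROR receptors and the corepressors of the REV-ERB proteins, 3 of 4 could be tested and none was called, none had an unadjusted p under 0.05 (16.7% of all genes did), and DESeq2 called none (Rora log2 fold change 0.29, Ncor1 -0.26, Hdac3 0.14).

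**Figure D3:**
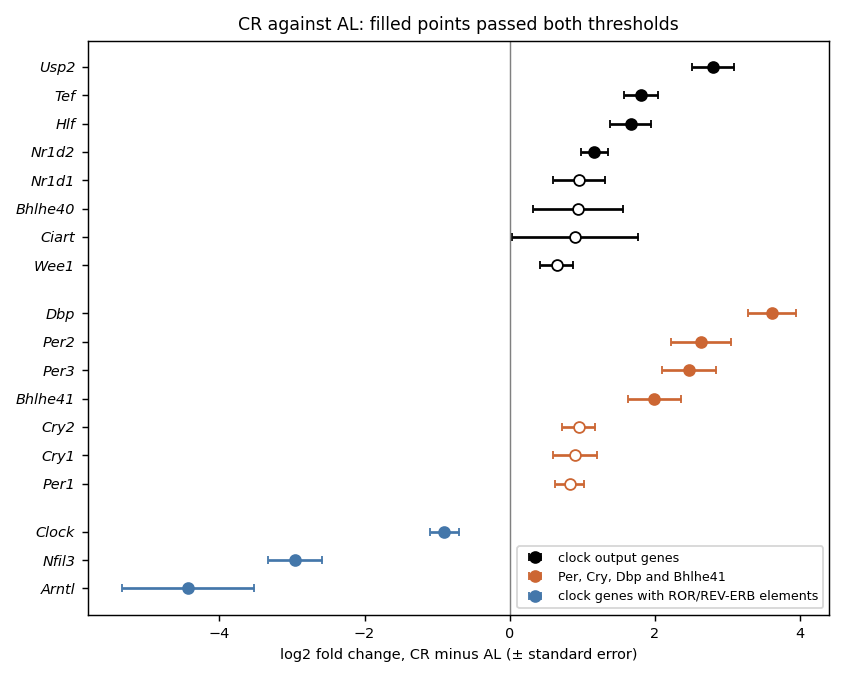
Log2 fold change (horizontal axis, CR minus AL, ± standard error) of the clock output genes, of the Per, Cry, Dbp and Bhlhe41 genes and of clock genes with ROR response elements. Filled points passed an adjusted p of 0.05 and a fold change of 1.5. Arntl, Nfil3 and Clock lie left of 0 and the other 15 genes right of it.

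Of 7 genes for kinases and ubiquitin ligases that set the stability of PER and CRY, 6 could be tested. Among them 1 was called higher, as 1.2% of all genes were. Csnk1e, which encodes casein kinase 1 epsilon, rose from 6.29 ± 2.61 to 17.5 ± 4.51 CPM (mean ± SD, n = 4 each, log2 fold change 1.47, standard error 0.33, adjusted p = 0.0451), a call that held without CR replicate 4 only and was lost without each of the other libraries. Its relative Csnk1d averaged 38.6 ± 2.69 CPM in AL and 40.3 ± 7.00 CPM in CR, a log2 fold change of 0.06 (adjusted p = 0.909).

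Genes known from other organs as targets of PAR bZIP factors gave 1 call among 6 tested of 8, in the direction in which 1.2% of all genes were called. Of the 6, 3 had an unadjusted p under 0.05, against 16.7% of all genes tested. Cyp2a5 and Cyp2b10 were higher in CR and Abcb1a was lower. Cyp2a5, a cytochrome P450 gene that D-boxes control in liver, was counted at 27.5, 50.0, 35.3 and 75.4 CPM with AL feeding and at 100.4, 204, 236 and 582 CPM with CR. The log2 fold change was 2.57 (adjusted p = 0.0223, standard error 0.48), and since Cyp2a4 is a near-identical copy, how reads were split between them is uncertain. It was 1.93 without CR replicate 4, the highest library, and the call was lost without AL replicate 1, 2 or 3 or CR replicate 2 or 3. Pdxk, the pyridoxal kinase gene, averaged 19.0 ± 1.81 CPM in AL and 20.0 ± 2.76 CPM in CR (log2 fold change 0.07, adjusted p = 0.893), and Por, which encodes P450 oxidoreductase, had a log2 fold change of 0.10 (adjusted p = 0.890). Cyp2b10 (log2 fold change 1.23, adjusted p = 0.0627) and the transporter gene Abcb1a (-0.87, adjusted p = 0.0955) missed the threshold although their diets did not overlap, and DESeq2 called both. Nr1i3 and Ces2a had 0 counts in all libraries.

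Metabolic and inflammatory genes that REV-ERB alpha represses in other cells could be tested for 3 of 7, and none was called. At an unadjusted p under 0.05, where 16.7% of all genes tested were, there was 1, Insig2, a regulator of sterol synthesis (log2 fold change -0.72, adjusted p = 0.150). DESeq2 called none. Plin2 had a log2 fold change of -0.13 and Lpl one of 0.21. Apoc3, G6pc and Fabp7 had 0 counts in all libraries, and Ccl2 was too rarely counted.

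Of 7 partners of WEE1 in the control of mitosis, 5 could be tested, all with a lower mean in CR and with a median of -0.98 for the log2 fold change. None was called, by edgeR or by DESeq2, and 3 had an unadjusted p under 0.05, against 16.7% of all genes tested. They were Cdk1, the kinase that WEE1 inhibits (log2 fold change -1.62, standard error 0.70, adjusted p = 0.269), the cyclin gene Ccnb2 (-1.29, adjusted p = 0.274) and Pkmyt1, the sister kinase of WEE1 (-0.98, adjusted p = 0.256). Cdc25a, a phosphatase gene that opposes WEE1, had a log2 fold change of -0.02, and its relative Cdc25b one of -0.21.

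Of 8 further genes that follow the clock in many organs, 7 had a higher mean in CR and 1 was called, while 5 had an unadjusted p under 0.05, against 16.7% of all genes tested. Tsc22d3, also a target of glucocorticoids, rose from 14.9 ± 2.32 to 28.8 ± 8.01 CPM (mean ± SD, n = 4 each, log2 fold change 0.95, standard error 0.22, adjusted p = 0.0480), and lost its call without any single library except CR replicate 4. Klf10 and Klf9, clock-driven zinc finger genes, had log2 fold changes of 1.47 (adjusted p = 0.234) and 0.60 (adjusted p = 0.426). For both, the diets overlapped, and CR replicate 2 was the highest library, as it was for Nr1d1 and Bhlhe40.

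**Figure D4:**
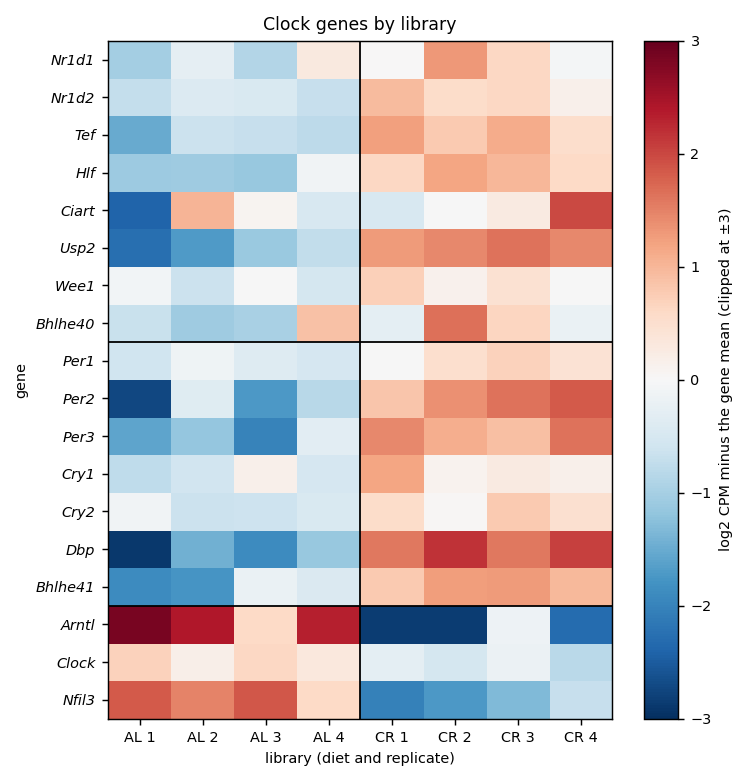
Log2 CPM of each gene in each library minus the mean of the gene over the 8 libraries (colour, clipped at 3 in either direction). Rows are the clock output genes (top), the Per, Cry, Dbp and Bhlhe41 genes (middle) and clock genes with ROR response elements (bottom), and columns are the libraries. Usp2 and Dbp are below their mean in every AL library and above it in every CR library, Nfil3 shows the reverse, and Ciart and Bhlhe40 show no such split.

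To find genes with the most similar course over the libraries, the root mean square distance between log2 CPM profiles, each centred on its own mean, was taken over the 8 libraries. It uses the difference between diets and is a description. For Usp2 the nearest of the other genes tested were the clock genes Bhlhe41 and Dbp, at distances of 0.462 and 0.525 log2 units, where the spread of Usp2 itself was 1.51. For Tef the 3 nearest were Glul, Stc1 and Plscr4 (0.155, 0.227 and 0.246 against a spread of 0.963), and Glul, the glutamine synthetase gene, had a log2 fold change of 1.97. For Hlf they were Creb3l1, 0610043K17Rik and Sesn1 (0.159, 0.244 and 0.305 against 0.918). For Nr1d2 they were Tacc1, Lrch1 and Farp1 (0.150, 0.155 and 0.161 against 0.613).

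Usp2 was the 1 gene of the 8 with clock genes of the lists among its nearest. Nr1d1 was nearest to Selenop, 4931406C07Rik and Sun2 (distances of 0.205, 0.227 and 0.248 log2 units against a spread of 0.711), and Wee1 to Gdpd1, Pwp1 and Pdgfa (0.103, 0.108 and 0.115 against 0.424). Bhlhe40 was nearest to 1700028E10Rik, Fgfr2 and Zbed3 (0.381, 0.391 and 0.409 against 0.907). Ciart was nearest to Pparg, 4933408B17Rik and Il20rb (0.508, 0.581 and 0.600 against 1.19). Among the 8 genes themselves, the nearest pair was Nr1d2 with Wee1 (0.351), followed by Nr1d2 with Tef (0.393), Nr1d1 with Bhlhe40 (0.413) and Tef with Hlf (0.442).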

How the data were processed

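Libraries of 8 LG samples were sequenced from 3' ends. The authors used cutadapt for trimming and STAR for alignment (build mm10), and deposited counts per gene made with HTSeq (versions, annotation and strand setting are not given in the sources used here). They also deposited log2 values of RLE-scaled counts plus 1, which differed by at most 0.000124 from values recomputed here and were not used further.

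Of 24557 rows, 5 with repeated symbols were dropped. CR was compared with AL with edgeR 4.0.16 in R 4.3.3 on 11211 genes passing filterByExpr (RLE factors, quasi-likelihood F test, Benjamini-Hochberg adjustment over all genes). Standard errors were taken as the absolute log2 fold change over the root of F. Log2 CPM used a prior count of 2. Calls required an adjusted p under 0.05 together with a 1.5-fold difference. The biological coefficient of variation was 34.7%, and totals of 12051881 to 22156511 counts set a floor of 3 counts at 0.152 to 0.231 CPM. No libraries were identical. The pipeline was tested on simulated data.

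The 8 genes and all gene lists were chosen with earlier results of these data known. For the lists these were values of Per, Cry, Dbp, Bhlhe41, Arntl, Clock and Nfil3 genes. Named are the 8 genes, called genes and at least 2 examples of each list in list order, and the 3 nearest profiles of each of the 8. A few genes of the lists and profiles are not reported here and are left out of the list counts. Thra, Per1, Cry1, Cry2, Cyp2b10, Abcb1a, Ccnb2, Cdc25b and Pkmyt1 were named after their values were seen. Positions come from GENCODE vM21 (GRCm38), and promoters from RefSeq (GRCm38.p6).

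Alternatives were TMM factors, DESeq2 1.42.0, an open filter for low counts, a minimum of 10 counts per library, leaving out each library in turn, a block for the replicate number, the parotid score as a covariate and no fold change threshold. Upper-quartile factors and leaving out both libraries numbered 4 were added after seeing the data.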

Additional observations from a re-analysis of the deposited data

Results flagged for a closer look

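Among 16 sets of 4 libraries (8 genes in 2 diets), 3 held a library far from the other 3, by the gap to its nearest neighbour as a share of the whole range beyond Dixon's critical value. About 1 in 20 such sets is expected by chance. In AL, replicate 4 stood above the other libraries for Hlf (0.961 of the range) and for Bhlhe40 (0.887), and in CR, replicate 4 stood above them for Ciart (0.847). AL replicate 4 was also the library with the fewest parotid transcripts (237 CPM). Without AL replicate 4 the log2 fold change was 1.72 for Bhlhe40, and Hlf kept its call.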

How the results depend on the processing

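The 8 clock output genes had a higher level in CR in every fit that could test them, and Usp2 kept its call in all. The genes were chosen with these differences known and each fit reuses these libraries, so this is a description only. The number called was 4 with all libraries, 3 or 4 when 1 library was left out, and 1 (Usp2) once the parotid score entered as a covariate. The pathway genes called, 10 with all libraries, numbered 4 to 17 without 1 library, 2 (Dbp and Cyp2a5) with the parotid score and 17 with the replicate block. All genes called, 222 with all libraries, numbered 61 to 700 without 1 library, 4 with the parotid score, 436 without the filter on low counts, 729 with DESeq2, 700 with the replicate block and 656 without both libraries numbered 4. The cause was not tested. With the parotid score standard errors were larger, and 6 of the 8 pathway genes that lost the call had log2 fold changes farther from 0 than without it. The parotid score did not overlap between diets, so this fit cannot tell parotid content from diet, and nothing is read from these changes. The labels do not say what the replicate numbers share, and they were to be taken as a pairing only if every pair correlated at over 0.1. Deviations from the diet means correlated at 0.149, 0.0795, 0.244 and 0.462 for replicates 1 to 4, and 3 of the 4 AL libraries correlated best with their own number, so a pairing cannot be dismissed. Under this block 5 clock output genes were called, with Wee1 added, and without both libraries numbered 4 also 5, with Nr1d1 added. Of the 282 values of single genes under other fits, 228 kept direction and side of the threshold, 52 kept the direction and lost the call, 2 gained it and none reversed. Ciart and Bhlhe40 had the fewest counts of the 8 genes and a wide spread within each diet, and Ciart passed the filter on low counts in 6 of the 8 fits that left out 1 library.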
